A study of Gallus gallus with 66 samples.

Results

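Nuclear genes of the mitochondrial respiratory chain were followed, complex by complex, in chicken preadipocytes, the fibroblast-like precursors of fat cells. A gene was a member when its annotated symbol begins with NDUF, UQCR, ATP5 or COX4 to COX8, or is SDHA, SDHB, SDHC, SDHD, CYC1 or CYCS, and when a probe set carried that symbol alone. The probe set with the highest mean over the 66 arrays stood for each gene. This gave 75 of the 13009 genes named on the Affymetrix chicken array. Complex I had 33 members, complex II had 2, complex III with cytochrome c had 9, complex IV had 8 and complex V, the ATP synthase, had 13. The other 10 were assembly factors and related genes that share the symbols. NDUFA4, first assigned to complex I and now counted as a cytochrome c oxidase subunit, was placed in complex IV. COX7B and ATP5J never rose above the array median on all 3 arrays of any group and were not tested, which left 73 members. Of these, 70 lay above the array median on every array. The subunits encoded in mitochondrial DNA and SDHB, SDHC and CYC1 were not analysed here.

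In oxidative phosphorylation, complexes I and II pass electrons from NADH and succinate to ubiquinone, complex III passes them to cytochrome c, and complex IV passes them to oxygen. Complexes I, III and IV pump protons across the inner mitochondrial membrane, and ATP synthase uses their return flow to make ATP. Preadipocytes and fat cells draw on this system for energy and for burning fatty acids. The roles named for single genes below are known mainly from mammals.

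The arrays compared 2 chicken lines that differ in abdominal fat content, called lean and fat. Abdominal fat from 15 male birds of each line, 10 days old, was pooled per line and treated with collagenase, floating fat cells were removed and red cells lysed. Each of the 22 groups had 3 arrays. For each line they were uncultured cells, cells passaged once and taken at 50% confluence (the labels call this -12 h) or 95% confluence (0 h), and cells kept a further 12, 24, 72 or 120 h either as controls or with 160 µg/ml oleate, a monounsaturated fatty acid. All cultured groups shared the single passage. The labels give 15 pooled birds for each line and do not say whether the 3 arrays of a group come from separate pools. Of 14 stromal and preadipocyte markers named on the array, none stayed below the array median on all 6 uncultured arrays, and 1 of 19 macrophage markers did so.

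The deposited values are on a log2 scale, on which a difference of 1 is a factor of 2, and all arrays share the median of 4.17. Over the tested probe sets the median r was 0.965 between arrays within a group and 0.948 between arrays of different groups. The labels show 2 styles of array name. The control cultures of 12 to 120 h and the fat line at 50% confluence carry one style and the other groups the other, apart from 1 array with no name, so every contrast of oleate with control is also a contrast of name styles. The comparison of 0 h with uncultured cells, the changes from 12 to 120 h and the differences between lines each lie within one style, with 1 exception. At 50% confluence the lines differ in style, and the fat line there also differs in style from its own uncultured and 0 h cells. Below, "called" means an adjusted p under 0.05 in limma, adjusted over all 22060 tested probe sets, and errors of differences are standard errors of that fit.

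Across the 22 groups the members had narrower ranges than the array as a whole, and a smaller spread within groups. They were mostly bright, with a median level percentile of 92.1 and 45 of 75 above the 90th. Ranges were not scaled by the spread within groups, so they do not rank how far genes moved beyond it. The range of a member's group means had a median of 0.73, against 1.41 for the 10117 tested named genes, and the median SD within a group was 0.0989 against 0.209. The 2 members of complex II had a median range of 0.35. Complex IV had one of 0.46, with COX6A1, a cytochrome c oxidase subunit, at 0.29. Complexes I, III and V had median ranges of 0.72, 0.68 and 0.67. The assembly group ranged most, with a median of 0.96 and ATP5S, the coupling factor B of ATP synthase, at 2.37. That group was also dimmer, at a median percentile of 71.7, and its median SD within a group was 0.146. Of the 73 members, 55 had their lowest group mean in uncultured cells of one line, against 44.7% of named genes, and 2 had their highest there.

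**Figure D1:**
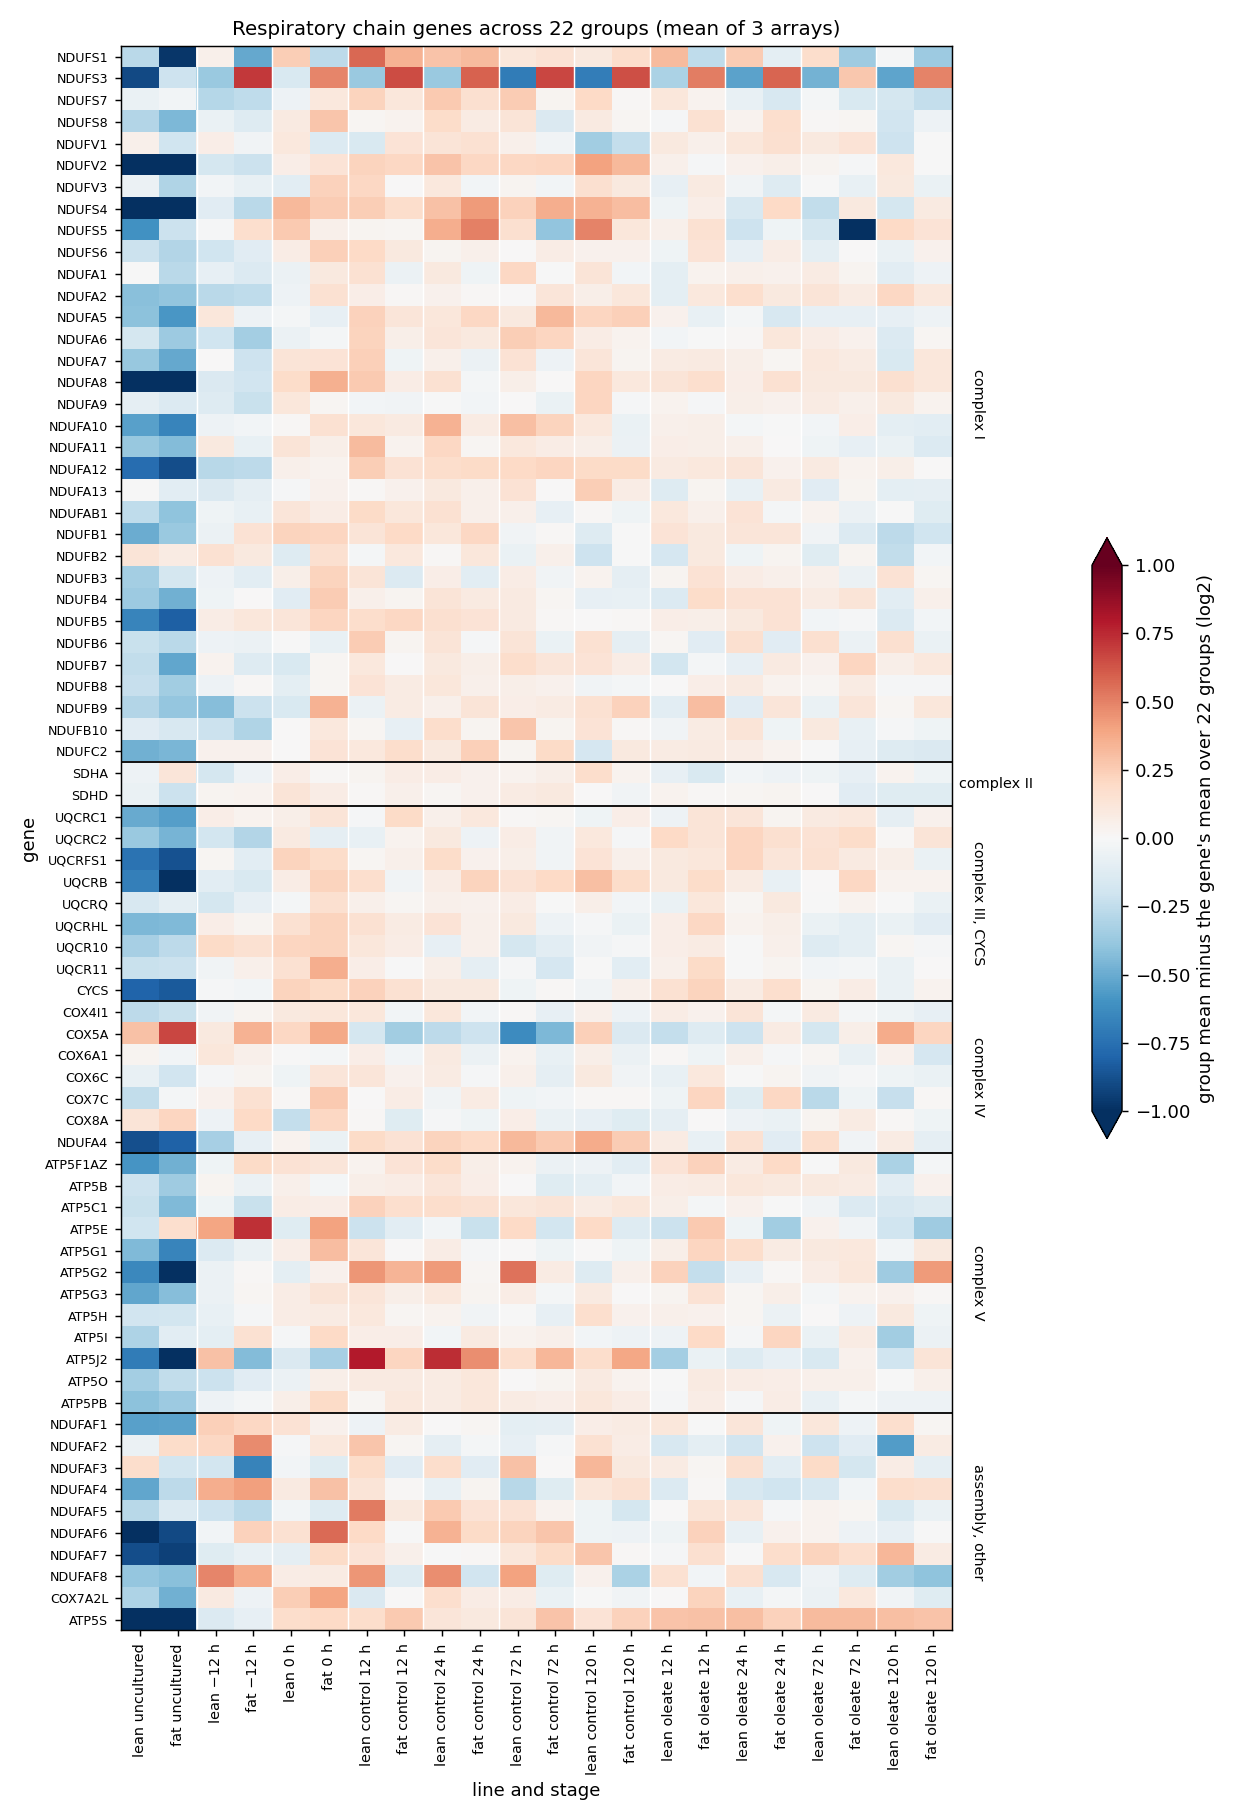
Heat map of the 73 tested members (each line a gene, ordered by complex) against the 22 groups, coloured by the group mean minus the gene's mean over all groups in log2 units and clipped at 1 above and below. For 55 of 73 genes the lowest of the 22 columns is an uncultured one of either line, and colours within the cultured groups are pale.

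The members of one complex followed each other to different degrees. The median correlation between 2 members over the 22 group means was 0.55 in complex I, 0.68 in complex III and 0.64 in complex V, but 0.07 in complex IV and 0.38 in the assembly group. It was 0.50 over all pairs of members and 0.03 over all named genes. For pairs that do not share a complex or the assembly group it was 0.49. These points share the same groups and the same normalization, and 2 of the 22 are uncultured. Over the 20 cultured groups alone the median fell to 0.20 for all members and to 0.17 for pairs that share no such set. There it was 0.29 in complex I, 0.26 in complex III, 0.12 in complex IV and 0.23 in complex V. In the assembly group it was -0.02. The members closest to the mean of the others were ATP5G3, which encodes the c subunit of the ATP synthase rotor, at r = 0.96, NDUFB5, an accessory subunit of complex I, at 0.96, and ATP5PB of the ATP synthase peripheral stalk at 0.95. CYCS, cytochrome c itself, followed at 0.95. COX5A at -0.58 and COX8A at -0.46, both nuclear subunits of complex IV, ran the other way over the 22 groups. Over the 20 cultured groups COX5A stood at -0.38 and COX8A at 0.005, and NDUFAF1 of the assembly group was lowest at -0.57. ATP5G3, NDUFB5, ATP5PB and CYCS were at 0.76, 0.67, 0.80 and 0.56 there.

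**Figure D2:**
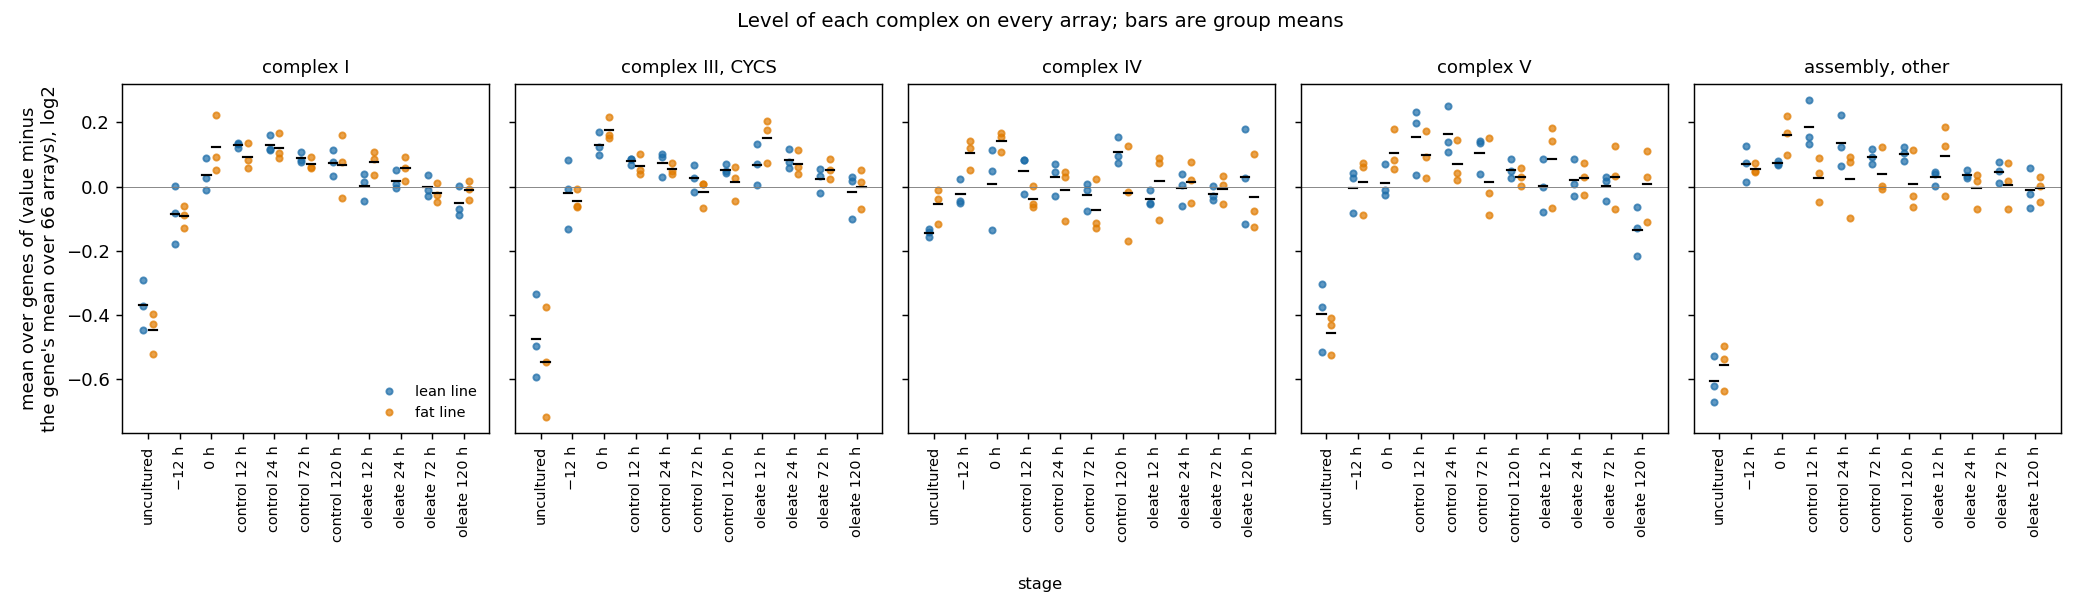
Level of complexes I, III with cytochrome c, IV and V and of the assembly group on every array, as the mean over members of the log2 value minus the gene's mean over all groups, by stage and line. Uncultured arrays lie lowest for complexes I, III and V and for the assembly group, whereas complex IV spans a narrow band.

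The first comparison set cells at 95% confluence against uncultured cells, and most of the respiratory chain was higher in culture. Of 73 members, 60 were called higher and 1 lower, against 44.2% and 29.5% of named genes. The median difference was 0.45 for the members and 0.20 for the named genes. In 38 members all 6 arrays at 0 h lay above all 6 uncultured arrays, and in 0 members all lay below, against 28% and 20.1% of named genes. By complex, 28 of 33 members of complex I, 1 of 2 of complex II, 9 of 9 of complex III, 4 of 7 of complex IV, 11 of 12 of complex V and 7 of 10 of the assembly group were called higher. In bulk RNA, fewer cells of a type and less RNA per cell cannot be told apart.

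Averaged over members, the level of complex I was -0.41 ± 0.08 (SD, n = 6 arrays) in uncultured cells and 0.08 ± 0.08 at 0 h, relative to each gene's mean over the groups. Complex III went from -0.51 ± 0.14 to 0.15 ± 0.04, and complex V from -0.43 ± 0.08 to 0.06. Complex IV spanned -0.10 ± 0.06 to 0.08 ± 0.11, so its arrays at the 2 stages lay closer together than those of the other large complexes. The level was already up at 50% confluence, where 61 members in the lean line and 65 in the fat line lay above the uncultured mean of their line, against 57.8% and 57.6% of named genes. In all 20 cultured groups, between 61 and 69 members did so. For the fat line at 50% confluence and for all control cultures this comparison crosses name styles.

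In complex I the accessory subunit NDUFS4, which is needed for a stable enzyme in mammals, rose most. Its 0 h arrays ran from 6.86 through a median of 7.29 to 7.48, and its uncultured arrays from 4.95 through 5.81 to 6.18, a difference of 1.49 ± 0.17 (adjusted p = 2.89e-11). NDUFA8 read 10.24, 10.43 and 10.67 (lowest, median and highest) at 0 h against 8.79, 9.21 and 9.39 in uncultured cells, a difference of 1.28 ± 0.10 (adjusted p = 4.96e-17). Neither gene's arrays overlapped between the stages. NDUFV2, a core subunit with an iron-sulfur cluster, rose by 1.18 ± 0.08 from 8.40, 8.65 and 8.90 to 9.63, 9.80 and 10.06 (adjusted p = 4.14e-19). Its 2 sets of arrays were also apart. The accessory subunits NDUFB5 and NDUFA12 rose by 0.91 ± 0.05 and 0.86 ± 0.05. NDUFS6, an accessory subunit of the electron input arm, read 11.21, 11.35 and 11.50 at 0 h and 10.73, 10.98 and 11.05 in uncultured cells, a difference of 0.41 ± 0.05 (adjusted p = 7.52e-10) with no overlap. NDUFB9, a membrane arm subunit, rose by a similar 0.44 ± 0.06 (adjusted p = 1.32e-08), but its 10.34, 10.60 and 10.97 overlapped the 10.06, 10.14 and 10.48 of uncultured cells. The 5 members of complex I that were not called were NDUFS5, NDUFA13, NDUFS7, NDUFV1 and NDUFB2.

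Complex II moved little. SDHD, a membrane anchor of succinate dehydrogenase, ran from 10.63 through 10.74 to 10.86 at 0 h and from 10.27 through 10.53 to 10.64 in uncultured cells, a difference of 0.24 ± 0.06 (adjusted p = 0.000264). The 2 ranges overlapped at their ends. SDHA, the flavoprotein that oxidizes succinate, was not called.

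Every member of complex III was higher in culture. UQCRB, a small subunit near the ubiquinone site, read 8.05, 8.19 and 8.50 at 0 h against 6.58, 7.30 and 7.62, a difference of 1.08 ± 0.13 (adjusted p = 2.4e-10). UQCRFS1, the Rieske iron-sulfur protein, read 10.54, 10.62 and 10.68 against 9.40, 9.60 and 9.79, a difference of 1.01 ± 0.08 (adjusted p = 9.14e-17). The arrays of both genes were fully separated. CYCS, the mobile carrier between complexes III and IV, read 11.77, 11.89 and 11.93 against 10.64, 10.80 and 11.08, a difference of 1.03 ± 0.06 (adjusted p = 3.98e-21) with no overlap. The core proteins UQCRC1 and UQCRC2 rose by 0.62 ± 0.06 and 0.42 ± 0.06, and UQCRQ by 0.20 ± 0.06.

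Complex IV gave the most mixed picture. NDUFA4 read 12.40, 12.57 and 12.62 at 0 h against 11.57, 11.73 and 11.83, a difference of 0.83 ± 0.06 (adjusted p = 1.46e-18), and its arrays did not overlap. COX4I1, the largest nuclear subunit, rose by 0.35 ± 0.04. COX8A, a small structural subunit, was the 1 member called lower. Its 9.98, 10.25 and 10.59 at 0 h overlapped its 10.29, 10.45 and 10.64 in uncultured cells, and the difference of -0.19 ± 0.07 (adjusted p = 0.0116) was no longer called without replicate 3 of the fat uncultured cells. COX6A1 and COX5A were not called.

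In ATP synthase the 3 genes that encode the same c subunit of the rotor ring all rose. ATP5G1 read 10.84, 11.15 and 11.26 at 0 h against 9.82, 10.49 and 10.64, a difference of 0.74 ± 0.08 (adjusted p = 3.87e-12). ATP5G3 read 12.40, 12.52 and 12.58 against 11.72, 11.93 and 12.11, a difference of 0.58 ± 0.05 (adjusted p = 1.95e-15). Both were without overlap. ATP5G2 lay near the array median, at 3.85, 4.12 and 4.51 against 1.61, 3.65 and 4.17, where 1.61 is the floor set for low values. Its difference of 0.90 ± 0.28 (adjusted p = 0.00435) therefore depends on that floor, and it was no longer called without replicate 1 of the fat uncultured cells. ATP5F1AZ, the alpha subunit of the catalytic head, rose by 0.67 ± 0.11, ATP5J2, subunit f of the membrane part, by 0.69 ± 0.13, and ATP5PB and ATP5O of the peripheral stalk by 0.51 ± 0.05 and 0.29 ± 0.04. ATP5E, the epsilon subunit, was not called.

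The assembly group held the largest difference of any member. ATP5S read 8.81, 8.91 and 9.24 at 0 h against 6.29, 6.87 and 7.12, a difference of 2.16 ± 0.10 (adjusted p = 3.43e-24) with no overlap. The complex I assembly factors NDUFAF6 and NDUFAF7 rose by 1.42 ± 0.12 and 0.96 ± 0.13, and COX7A2L, which joins complexes III and IV into supercomplexes, by 0.71 ± 0.08. NDUFAF2, NDUFAF3 and NDUFAF5 were not called.

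**Figure D3:**
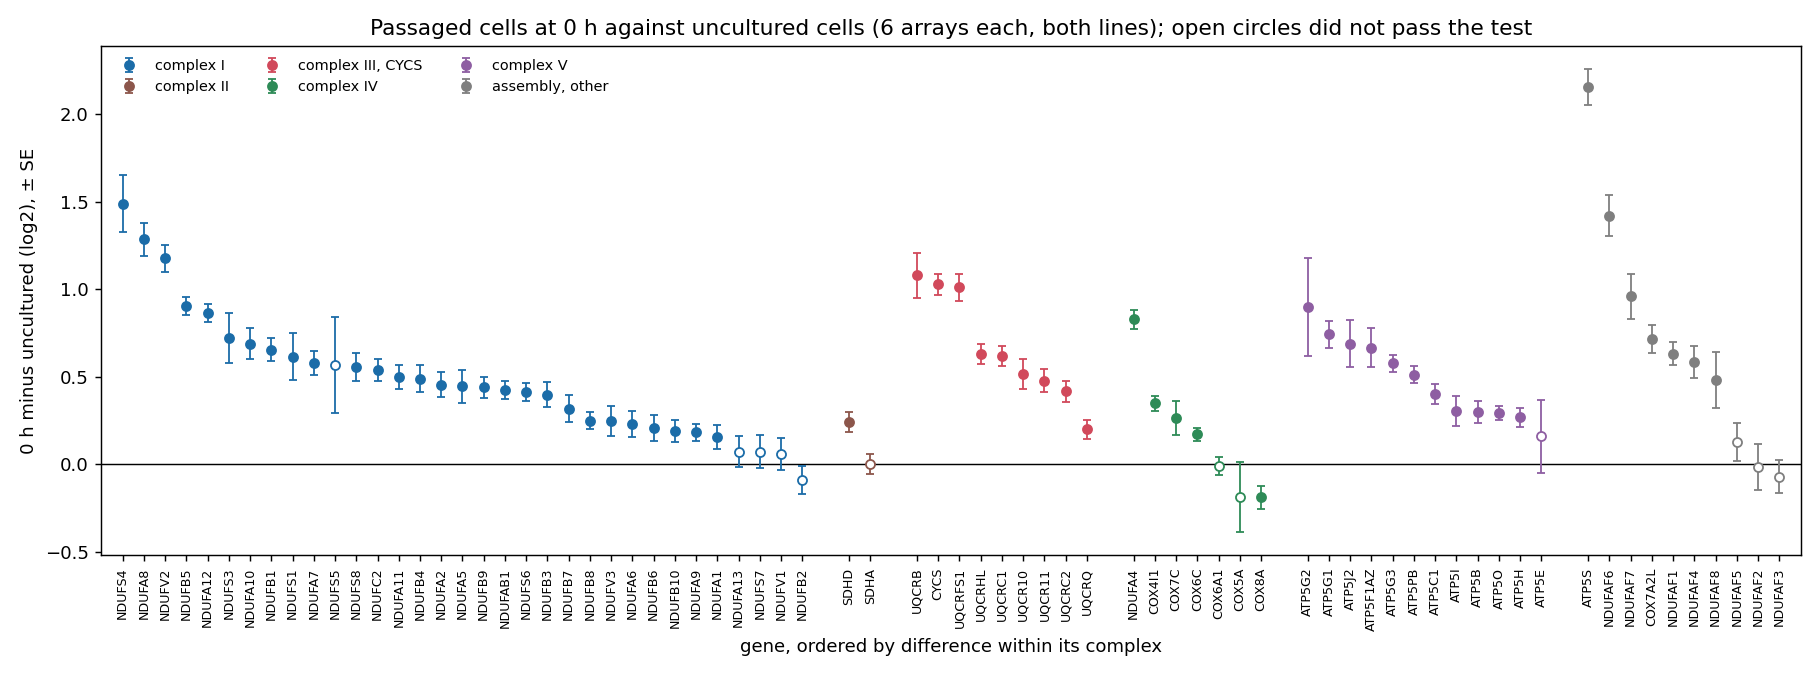
Difference between 0 h and uncultured cells for each member, in log2 units with its standard error, grouped by complex, with open symbols for members that were not called. Most points lie above 0, from ATP5S at 2.16 down to COX8A at -0.19 among those called.

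For members with several tested probe sets, 28 of the 40 dimmer sets had the sign of the brightest one. In 23 both were called in the same direction and in 5 in opposite ones. The opposite sets belonged to ATP5C1, ATP5O, NDUFA11 and SDHD, so the rise of these 4 genes rests on the brightest probe set. Taking the median of each gene's probe sets instead gave 56 members higher and 3 lower. For the line difference in controls described below, 17 of the 40 dimmer sets had the sign of the brightest one, and for the oleate effect 28 did. The brightest set was called beside 8 dimmer sets for the line difference and beside 13 for oleate. Both were called in the same direction in 1 and 6 of these, and in opposite ones in 0.

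Other cell types and technical readings moved along with this comparison. Of the tested markers, 14 of 17 for macrophages, 10 of 12 for lymphocytes, 9 of 11 for endothelium, 4 of 6 for erythroid cells, 11 of 13 for stroma and 8 of 11 for fat cells were lower at 0 h. Smooth muscle markers were higher in 7 of 8 and cell cycle genes in 14 of 15. The summed macrophage signal was 14.92 to 15.36 in uncultured cells and 12.42 to 13.50 at 0 h on the log2 scale, and that of lymphocytes 11.73 to 12.49 and 7.34 to 7.87. On all 6 arrays 6 of 14 lymphocyte markers were below the array median at 0 h, against 1 in uncultured cells. The summed erythroid signal was 9.72 to 11.93 and 6.12 to 6.40, with 3 of 8 markers below the median at both stages. That of skeletal muscle rose, from 8.64 to 8.91 in uncultured cells to 11.61 to 12.56 at 0 h. At both stages 8 of its 11 markers were below the median. Poly-A spike-in controls were lower at 0 h in 32 of 36 probe sets, by a median of -0.62, and hybridization controls differed by a median of -0.51. The 3' minus 5' signal, a reading of RNA quality, differed by -0.30 for actin and -0.25 for GAPDH. Their part in the result was not tested.

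Other mitochondrial genes were counted by lists, beside 44.2% of named genes called higher at 0 h and 29.5% lower. Of assembly factors for complexes I to V, 24 of 33 were higher at 0 h and 3 lower, with TMEM126A at 1.30 ± 0.09. Mitochondrial import, mass and dynamics genes were higher in 16 of 18 and lower in 1, led by the inner membrane scaffold PHB at 1.70 ± 0.08 and the chaperonin HSPD1 at 1.70 ± 0.09. In the citrate cycle 9 of 13 were higher and 1 lower, with malate dehydrogenase MDH2 at 1.02 ± 0.06. All 5 tested genes of ADP/ATP exchange were higher, with the ADP/ATP carrier SLC25A4 at 1.74 ± 0.12. For mitochondrial DNA maintenance the counts were 6 higher and 3 lower of 9, for electron entry elsewhere 4 and 2 of 6, and for antioxidant enzymes 5 and 4 of 10. Of the transcriptional regulators, 8 of 13 were higher, including GABPA, the DNA-binding part of nuclear respiratory factor 2, at 0.58 ± 0.06, and 3 were lower, including PPARD at -2.79 ± 0.15 and PPARG, the main regulator of fat cell formation, at -2.24 ± 0.18. The median differences of the lists lay between 0.23 and 0.82.

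The step to culture was then compared between the lines. The difference of the differences, fat minus lean, was called for 3 members, all positive, against 1.57% of named genes higher and 1.77% lower. Poly-A spike-in controls were called lower in 32 of 36 probe sets in the same contrast, by a median of -0.90, and their part was not tested. NDUFB9 rose in the fat line from 10.07, 10.15 and 10.18 to 10.81, 10.82 and 10.97. In the lean line its 10.06, 10.13 and 10.48 stood against 10.34, 10.37 and 10.38, so the line-specific part was 0.59 ± 0.12 (adjusted p = 0.00236). Only the fat arrays of the 2 stages were apart. NDUFV3, a small subunit of the electron input arm, read 9.49, 9.55 and 9.55 in fat uncultured cells and 9.99, 10.10 and 10.10 at 0 h, but 9.75, 9.75 and 9.80 and then 9.60, 9.72 and 9.86 in the lean line (0.58 ± 0.17, adjusted p = 0.0443). COX6C, a nuclear subunit of complex IV, differed by 0.29 ± 0.08 (adjusted p = 0.0217), with fat cells at 12.16, 12.27 and 12.35 and then 12.50, 12.52 and 12.70, and lean cells at 12.34, 12.36 and 12.45 and then 12.27, 12.44 and 12.51. The count fell to 1 without replicate 2 of the lean uncultured, fat uncultured or lean 0 h arrays and went to 5 without replicate 1 of the fat uncultured arrays. The call of NDUFB9 held in all 12 repeats that left out 1 array, that of COX6C was lost in 4 (the 3 just named and replicate 3 of the fat 0 h arrays) and that of NDUFV3 in 10 of 12, all but those without lean 0 h replicate 3 or fat 0 h replicate 3. With the groups compared fitted alone none of the 3 was called.

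The comparison by confluence, 0 h against 50% confluence, uses the same 0 h arrays. The labels name these stages -12 h and 0 h, so confluence and time in culture cannot be told apart in it. In the lean line, where both stages share a name style, 3 members were called higher and 0 lower, against 1.54% and 0.811% of named genes. NDUFA12 read 11.36, 11.42 and 11.56 at 0 h against 11.10, 11.12 and 11.13 (0.33 ± 0.07, adjusted p = 0.0061). NDUFA4 read 12.54, 12.60 and 12.62 against 12.03, 12.30 and 12.35 (0.36 ± 0.08, adjusted p = 0.00727). NDUFS6 read 11.21, 11.24 and 11.34 against 10.96, 10.97 and 11.03 (0.28 ± 0.07, adjusted p = 0.0272). None of the 3 overlapped. Members that were not called could also lie apart with 3 arrays on each side, such as NDUFS1 (adjusted p = 0.721) and NDUFB3 (adjusted p = 0.699). No share of named genes without overlap is given for this comparison. Without lean 0 h replicate 1 NDUFA12 was not called, without lean -12 h replicate 1 NDUFA4 was not, and NDUFS6 was not without replicate 1 or 2 of either stage. The count was 1 without replicate 1 of the lean -12 h or lean 0 h arrays and 6 without replicate 3 of the lean -12 h arrays.

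In the fat line 20 members were called higher at 0 h than at 50% confluence and 0 lower, against 7.1% and 6.96% of named genes, but there the stages also differ in name style, and the 2 cannot be told apart. Poly-A spike-in controls were called lower in 18 of 36 probe sets there, by a median of -0.47, and their part was not tested. Complex I supplied 12 of them, complex III 2, complex V 4 and the assembly group 2. NDUFB9 changed most by adjusted p, from 10.22, 10.35 and 10.35 to 10.81, 10.82 and 10.97 (0.56 ± 0.09, adjusted p = 5.41e-06). NDUFS6 rose by 0.35 and NDUFA8 by 0.55. NDUFAF3, an assembly factor of complex I, rose by 0.54 ± 0.13 with 7.79, 7.80 and 7.84 above 7.17, 7.31 and 7.33. The count was 12 without replicate 2 of the fat -12 h arrays and 9 without replicate 3 of the fat 0 h arrays.

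The second main comparison set oleate against control cultures over both lines and 4 times, 24 arrays against 24. Differences were small and mostly negative. For oleate against control, "fell" and "rose" mean lower or higher than in the controls, not a change from 0 h. Of 73 members, 1 was called higher and 20 lower, against 15.6% and 19.3% of named genes, and the median difference was -0.05 against -0.03. By complex the calls were 14 of 33 lower in complex I, 1 of 2 lower in complex II, 1 of 9 higher in complex III, 1 of 7 lower in complex IV, 3 of 12 lower in complex V and 1 of 10 lower in the assembly group. No member's oleate arrays were all above or all below the control arrays, against 0.247% and 0% of named genes. Array name style runs with treatment here. An estimate of the style shift, the confluence difference of the fat line minus that of the lean line, had a median of 0.10 over the members and none was called in it. That estimate also holds any difference between the lines in the response to confluence. With that estimate subtracted, which adds the error of 12 more arrays, 1 member, ATP5J2, remained called and the members' median became -0.14. An unadjusted p under 0.05 was found for 9 members, with no share of named genes at that threshold beside it. Of 10117 named genes, 60 remained called, so the loss of calls was not particular to the members. Poly-A spike-in controls were lower under oleate in 36 of 36 probe sets, by a median of -0.60, and 13 of 17 macrophage markers were higher, by a median of 0.75 over the 17. The summed macrophage signal was 11.53 to 12.49 in controls and 11.92 to 13.29 under oleate at 12 h, and 11.94 to 13.37 and 11.68 to 12.96 at 120 h. That of skeletal muscle was 11.98 to 12.78 and 11.63 to 12.45 at 12 h, and 9.45 to 11.63 and 8.87 to 11.91 at 120 h. Fat cell markers summed to 11.07 to 11.72 in controls and 12.51 to 13.07 under oleate at 12 h, without overlap. At 120 h they were at 10.83 to 11.59 and 11.39 to 12.46. Mesothelial and epithelial markers were at 8.49 to 9.84 and 9.20 to 10.61 at 12 h. Their part in the result was not tested.

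The largest negative difference was that of ATP5J2. On average it read 6.08 at 0 h, 6.12 with oleate at 12 h and 6.82 in 12 h controls. Its oleate arrays ran from 5.60 through 6.22 to 6.66 and its control arrays from 6.27 through 6.70 to 7.44, a difference of -0.51 ± 0.07 (adjusted p = 1.63e-08). At 12, 24, 72 and 120 h the lean cells differed by -1.13, -0.87, -0.33 and -0.37 and the fat cells by -0.28, -0.55, -0.29 and -0.26. All 8 values were below 0. ATP5C1, the gamma subunit that forms the central shaft, read 10.65, 10.94 and 11.10 under oleate and 11.02, 11.14 and 11.24 in controls (-0.19 ± 0.03, adjusted p = 1.12e-07). ATP5PB fell by 0.09 ± 0.02. The c subunit genes ATP5G1, ATP5G2 and ATP5G3 differed by 0.08, -0.20 and -0.02 and were not called.

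In complex I both core and accessory subunits were lower than in controls. NDUFS4 ran from 6.27 through 6.88 to 7.56 under oleate and from 6.56 through 7.26 to 7.72 in controls (-0.32 ± 0.08, adjusted p = 0.00182). NDUFS1, the largest core subunit, ran from 9.43 through 10.16 to 10.59 and from 9.78 through 10.51 to 10.88 (-0.30 ± 0.07, adjusted p = 0.000423). Both ranges overlapped broadly. NDUFA5 read 7.49, 7.68 and 7.96 against 7.71, 7.94 and 8.16 (-0.26 ± 0.05, adjusted p = 2.38e-05), and NDUFV2 read 9.58, 9.75 and 9.94 against 9.78, 9.97 and 10.26 (-0.23 ± 0.04, adjusted p = 4.55e-06). NDUFS7, a core subunit near ubiquinone, fell by 0.24 ± 0.05 and NDUFA12 by 0.13 ± 0.02. NDUFS6 fell by 0.07 ± 0.03 (adjusted p = 0.0252), with 10.99, 11.19 and 11.42 against 11.08, 11.27 and 11.49. NDUFB9 differed by -0.04 ± 0.03 (adjusted p = 0.323). NDUFB1 was called at an adjusted p of 0.0461, and this call was lost in 27 of 48 repeats that left out 1 of its arrays.

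Outside complexes I and V few members moved. SDHA read 10.22, 10.42 and 10.54 under oleate against 10.41, 10.50 and 10.78 (-0.12 ± 0.03, adjusted p = 0.000579). UQCRC2 was the 1 member called higher, at 10.39, 10.63 and 10.72 against 10.29, 10.48 and 10.74 (0.13 ± 0.03, adjusted p = 0.000726). CYCS differed by 0.02 ± 0.03 (adjusted p = 0.714). NDUFA4 had the smallest p of all members, with 12.29, 12.59 and 12.80 against 12.64, 12.79 and 13.01 (-0.22 ± 0.03, adjusted p = 6.64e-09). With the name-style estimate subtracted the sign of NDUFA4 turned to 0.12 and that of SDHA to 0.05. NDUFAF2 fell by 0.19 ± 0.06 (adjusted p = 0.0166).

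By line, 1 member was called higher and 24 lower in lean cells, against 9.63% and 10.5% of named genes, and 4 higher and 11 lower in fat cells, against 11.4% and 13.4%. With the culture series (line, treatment and replicate number) as a random block these totals of 25 and 15 became 11 and 9. In lean cells ATP5J2 fell by 0.67 ± 0.09, NDUFS4 by 0.44 ± 0.12, NDUFAF8 by 0.36 ± 0.11 and NDUFB9 by 0.12 ± 0.04 (adjusted p = 0.048, not called in 18 of 24 repeats that left out 1 array). In fat cells NDUFS1 fell by 0.51 ± 0.10, ATP5J2 by 0.34 ± 0.09, NDUFA5 by 0.31 ± 0.07 and NDUFA4 by 0.29 ± 0.04. UQCRC2, UQCR11, ATP5G1 and NDUFB3 were the 4 members higher in fat cells, by 0.16, 0.14, 0.14 and 0.13. The difference between the lines was called for 1 member, COX6C, against 1.73% of named genes. An unadjusted p under 0.05 was found for 20 members, with no share of named genes at that threshold beside it. With the culture series as a random block 0 members were called, and poly-A spike-in controls were called lower in 33 of 36 probe sets of this contrast, by a median of -0.61, whose part was not tested. COX6C read 12.36, 12.42 and 12.49 under oleate and 12.46, 12.56 and 12.60 in controls of the lean line, and 12.36, 12.45 and 12.58 and 12.29, 12.44 and 12.54 in the fat line. It was below control at all 4 hours in lean cells and above it at 3 of 4 in fat cells, a difference of 0.16 ± 0.04 (adjusted p = 0.0132). COX6C has 2 tested probe sets, and the median of them gave 0.05 (adjusted p = 0.86). The count was 2 without replicate 1 of the lean 24 h or fat 72 h controls, or without replicate 3 of the fat 72 h, lean 120 h or fat 120 h oleate cultures.

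**Figure D4:**
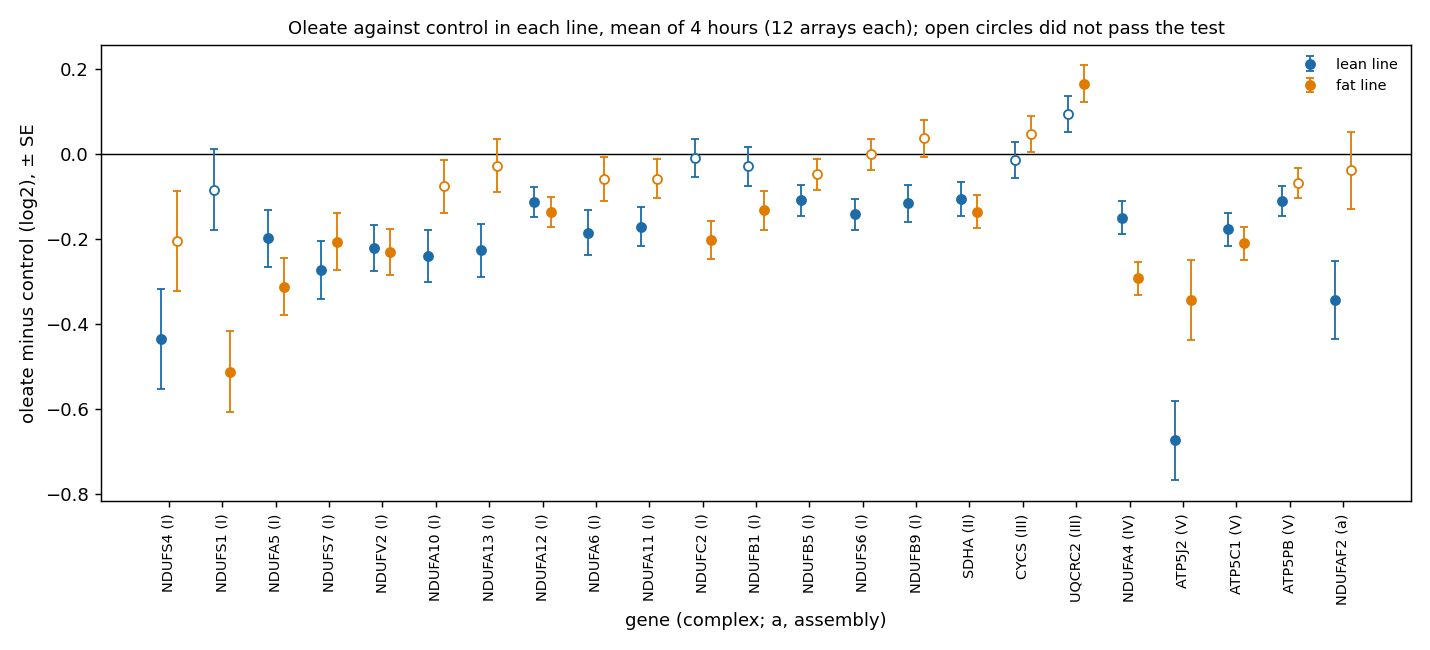
Oleate minus control in log2 units with standard errors, for the 21 members called over both lines and for NDUFB9 and CYCS, with separate points for the lean and the fat line. ATP5J2 lies lowest in the lean line at -0.67 and NDUFS1 in the fat line at -0.51, and UQCRC2 is the called member above 0.

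By hour, 5 members were called at 12 h, 3 at 24 h, 3 at 72 h and 7 at 120 h, against 9.78%, 6.85%, 7.12% and 9.57% of named genes. ATP5J2 fell by 0.71 at both 12 and 24 h, and NDUFA4 by 0.19, 0.22 and 0.32 at 24, 72 and 120 h. At 12 h the count was 2 or 3 without any one of 10 of the 12 arrays (replicates 2 and 3 of the lean and 1 to 3 of the fat controls, 1 to 3 of the lean and 1 and 2 of the fat oleate cultures). At 24 h it was 1 without replicate 2 of the fat controls or replicate 1 of the fat oleate cultures, and at 72 h it was 5 without replicate 1 of the fat controls. At 120 h it was 3 without replicate 2 of the fat controls and 4 without replicate 1 of the lean controls, replicate 3 of the lean or replicate 3 of the fat oleate cultures. The oleate difference at 120 h minus that at 12 h was called for 0 members, against 0.356% of named genes. Oleate at 12 h against 0 h, which lies within one name style, gave 0 called members, against 0.623% of named genes. In these 2 contrasts 3 and 8 members had an unadjusted p under 0.05. No share of named genes at that threshold is given beside them. Means at 0 h, with oleate at 12 h and in 12 h controls were 10.20, 10.24 and 10.66 for NDUFS1. For NDUFA4 they were 12.54, 12.56 and 12.72. In these 2 genes oleate lay near 0 h and the 12 h controls stood above it. Those controls also differ from the 0 h arrays in name style, which cannot be told apart from culture as a control. NDUFS4 read 7.24, 6.96 and 7.16 and SDHA 10.49, 10.34 and 10.51, lower with oleate than at 0 h.

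Companion lists held calls in both directions under oleate, where 15.6% of named genes were called higher and 19.3% lower. The counts, higher and lower, were 6 and 5 of 33 assembly factors, 2 and 3 of 13 citrate cycle genes, 3 and 2 of 13 transcriptional regulators, 2 and 3 of 18 import and dynamics genes, 3 and 0 of 5 ADP/ATP exchange genes, 2 and 1 of 9 for mitochondrial DNA, 1 and 0 of 6 for electron entry and 1 and 1 of 10 antioxidant enzymes. ACAD9, an acyl-CoA dehydrogenase that also helps assemble complex I, rose by 0.48 ± 0.05, and GPD2, the mitochondrial glycerol-3-phosphate dehydrogenase that feeds ubiquinone, by 0.47 ± 0.07. The citrate cycle genes IDH3A and DLD fell by 0.46 ± 0.05 and 0.34 ± 0.03. GABPB1, the partner of GABPA, fell by 0.34 ± 0.04, while the nuclear receptor ESRRG rose by 0.45 ± 0.07. The carriers SLC25A3, SLC25A4 and SLC25A5 rose by 0.10, 0.20 and 0.13.

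Over time in culture the members called between 12 and 120 h were all lower at 120 h with all arrays in the fit. In controls 0 of 73 were higher and 6 lower, against 5.44% and 5.41% of named genes. The 6 were NDUFAF5 at -0.42, NDUFV1 at -0.28, NDUFB1 at -0.23, CYCS at -0.19, NDUFB5 at -0.18 and NDUFAB1, the mitochondrial acyl carrier protein, at -0.17. CYCS read 11.55, 11.72 and 11.73 at 120 h and 11.75, 11.86 and 11.99 at 12 h (± 0.06, adjusted p = 0.0369), without overlap, but the call was lost in 8 of 12 repeats, those without replicate 2 or 3 of any of the 4 groups. The count was 3, all lower, without replicate 2 of the lean or fat 12 h controls, and 2, both lower, without replicate 3 of the lean 120 h controls. Without replicate 3 of the fat 12 h controls 1 member was higher and 2 lower, and without replicate 3 of the fat 120 h controls 2 were higher and 1 lower, so the direction in controls rests on those arrays. With oleate 0 members were higher and 9 lower, against 7.19% and 8.39% of named genes. NDUFB1 fell by 0.35 (adjusted p = 0.000204), ATP5F1AZ by 0.35, ATP5I, subunit e, and NDUFS7 by 0.28, NDUFC2 and UQCRHL by 0.22, CYCS by 0.20 ± 0.06 (adjusted p = 0.0175), ATP5C1 by 0.17 and COX4I1 by 0.12. CYCS under oleate read 11.47, 11.65 and 11.83 at 120 h and 11.71, 11.85 and 12.01 at 12 h, which overlapped. This call was lost in 5 of 12 repeats, those without replicate 3 of the lean 12 h, lean 120 h or fat 120 h or replicates 1 or 2 of the fat 12 h cultures. The count went to 14, with 1 higher and 13 lower, without replicate 2 of the lean 120 h cultures, to 3 without replicate 3 of the lean or fat 120 h or replicates 1 or 2 of the fat 12 h cultures, and to 4 without replicate 3 of the lean 12 h cultures. The 2 time comparisons use different arrays, and the difference between them is the change of the oleate effect given above. The summed skeletal muscle signal also fell with time, in controls from 11.98 to 12.78 at 12 h to 9.45 to 11.63 at 120 h. With oleate it went from 11.63 to 12.45 to 8.87 to 11.91, and its part was not tested.

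The third main comparison was between the lines, fat minus lean. In control cultures 2 members were called higher and 11 lower in the fat line, against 7.44% and 9.82% of named genes. With oleate 7 were higher and 7 lower, against 6.74% and 9.2%. With the culture series as a random block these totals of 13 and 14 became 6 and 8. Beside these differences, 6 of 17 macrophage markers were higher in fat control cultures and poly-A spike-in controls were lower in the fat oleate cultures in 32 of 36 probe sets, by a median of -0.56. In uncultured cells they were higher in the fat line in 30 of 36, by a median of 0.94, with the 3' minus 5' signal of actin differing by 0.19. Their part was not tested.

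NDUFS3, a core subunit of complex I measured by 1 probe set, stood apart from the other members. Its control arrays ran from 6.85 through 7.12 to 7.30 in the fat line and from 5.58 through 5.90 to 6.44 in the lean line, a difference of 1.17 ± 0.10 (adjusted p = 6.41e-12). With oleate they ran from 6.56 through 6.93 to 7.23 and from 5.53 through 6.02 to 6.25 (0.93 ± 0.10, adjusted p = 3.58e-09). The lines did not overlap in either treatment. Of named genes, 0.168% in controls and 0.336% with oleate were all higher in the fat line, and 0.158% and 0.237% all lower. In uncultured cells the fat arrays at 5.58, 6.48 and 6.73 overlapped the lean ones at 5.21, 5.70 and 5.78 (0.70 ± 0.20, adjusted p = 0.0478), and this call was lost without replicate 1 or 2 of the lean or replicate 2 or 3 of the fat arrays. At 0 h the fat arrays at 6.90, 6.94 and 7.03 lay above the lean ones at 6.12, 6.22 and 6.60 (0.64 ± 0.20, adjusted p = 0.0405), a call lost without any one of them but replicate 3 of the lean arrays. The fat line was higher at 11 of 11 stages, by 0.64 to 1.37. One of the 11 is 50% confluence, at 1.08, where the lines also differ in array name style.

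NDUFS1, another core subunit of complex I, differed the other way at some stages. In uncultured cells the fat line read 9.08, 9.26 and 9.35 and the lean line 9.85, 9.95 and 10.00 (-0.70 ± 0.19, adjusted p = 0.0311). With oleate it read 9.43, 9.99 and 10.29 against 9.88, 10.43 and 10.59 (-0.45 ± 0.10, adjusted p = 0.000632). In control cultures the lines read 10.07, 10.45 and 10.88 and 9.78, 10.58 and 10.86, and the difference was -0.02 ± 0.10 (adjusted p = 0.907). Uncultured arrays of the lines were apart, and those of both treatments overlapped. NDUFS1 and NDUFS3 were the 2 members called in uncultured cells, against 2.8% of named genes. The count there was 0 without replicate 1 or 2 of the lean or replicate 2 of the fat uncultured arrays, and 1 without replicate 3 of the fat ones.

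NDUFB9 was higher in the fat line at 10 of 11 stages, of which 50% confluence, at 0.22, crosses name styles. Its fat arrays at 0 h read 10.81, 10.82 and 10.97 and its lean arrays 10.34, 10.37 and 10.38, with no overlap (0.50 ± 0.09, adjusted p = 0.000148). With oleate it read 10.55, 10.64 and 10.95 against 10.35, 10.44 and 10.69 (0.23 ± 0.04, adjusted p = 0.000117), and in controls the difference was 0.08 ± 0.04 (adjusted p = 0.221). NDUFS6 differed by 0.14 ± 0.04 with oleate (adjusted p = 0.00594), and its stage differences ran from -0.11 to 0.18. CYCS was higher in the fat line at 6 of 11 stages, 50% confluence not among them, by no more than 0.10, and was not called at any of the 4 line comparisons.

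**Figure D5:**
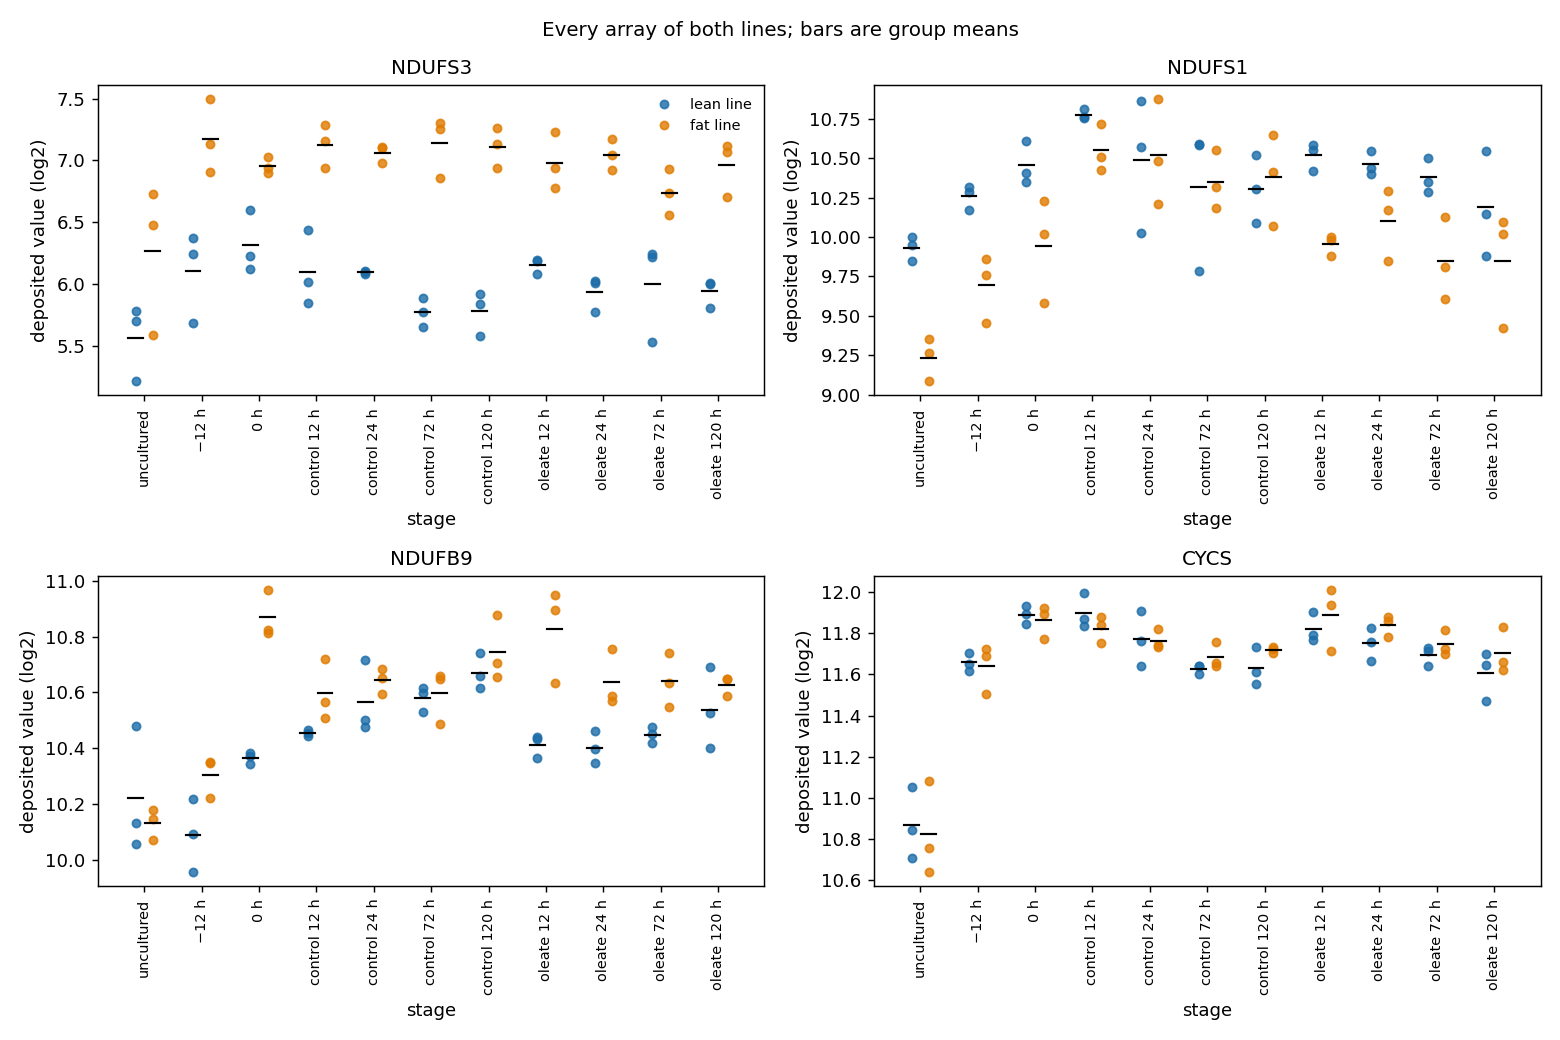
Log2 values of NDUFS3, NDUFS1, NDUFB9 and CYCS on every array at the 11 stages, lean and fat lines in separate colours. NDUFS3 is higher in the fat line at every stage and NDUFB9 at 10 stages. NDUFS1 is lower in fat cells when uncultured, at 50% confluence, at 0 h and with oleate. CYCS lies lowest in uncultured cells of both lines.

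Among the other line differences in controls, NDUFAF8, an assembly factor of complex I, was lower in the fat line at -0.52 ± 0.11 (adjusted p = 0.00096), as were NDUFAF3 at -0.28 ± 0.07 and NDUFB6 at -0.20 ± 0.05. NDUFB6 was lower in the fat line at 11 of 11 stages, with only -0.01 at 50% confluence, where name styles differ. In complex IV, COX4I1, COX6A1 and COX6C were lower, at -0.12, -0.12 and -0.11. NDUFC2 was higher by 0.16 ± 0.04. With oleate, COX7C, ATP5I and NDUFAF2 were higher in the fat line by 0.26, 0.23 and 0.26 (NDUFAF2 lost its call in 13 of 24 repeats that left out 1 array), while NDUFA4 was lower at -0.20 ± 0.04 (adjusted p = 0.000204). At 0 h 5 members were higher in the fat line and 0 lower, against 3.01% and 4.04% of named genes. Besides NDUFS3 and NDUFB9 they were NDUFB4 at 0.37, COX6C at 0.16 and COX8A, which read 10.35, 10.53 and 10.59 against 9.98, 9.99 and 10.14 (0.45 ± 0.10, adjusted p = 0.00147). The count at 0 h was 2 without replicate 2 of the lean arrays and 3 without replicate 1 of the fat arrays. No call of complex II or III was made between the lines.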

How the data were processed

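Total RNA (6 µg) gave biotin-labelled cRNA for 66 Affymetrix chicken arrays. The deposited log2 values were made by the authors, and MAS5 is named in the submitters' processing notes without version or role. The log base is taken from the values, which run from -5.23 to 13.51, and once sorted the arrays are alike to within 0.0615, the pattern that quantile normalization produces. All 66 columns were matched to samples by label. Here values under 1.61 (the 20th percentile) were set to that floor, and probe sets above the array median on all 3 arrays of some group were kept, 22060 of 38535. Of all probe sets, 27178 carry 1 gene symbol, 177 several and 11180 none, and 74 of the 75 member symbols matched RefSeq by Entrez ID. Another 96 control probe sets were kept apart.

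One limma model (limma 3.58.1, R 4.3.3) with a mean for each of 22 groups and trended robust eBayes (44 residual degrees of freedom) gave 20 two-sided contrasts, adjusted by Benjamini-Hochberg over all tested probe sets. The steps were tested on simulated data with planted differences and independent noise. That cannot show how the p-values behave where arrays share a pool, a culture series or a name style. The labels say the 3 arrays of a group are biological replicates but not from which pool, dish or day each came, so p-values measure only the spread between these arrays. The number of arrays limits the precision. Levels are compared between probe sets only for brightness, in the choice of the brightest set, the level percentiles and the position against the array median.

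Genes named were NDUFB9, NDUFS6 and CYCS, the called member with the largest rise and the largest fall of each complex, and isoforms of one subunit. For companion lists only some of the 3 strongest called genes were named, and for some lists and comparisons none. Further members given beside these were chosen after their values were seen. Members, lists and tests were chosen with earlier results of these data known. Alternatives changed the floor, filter, probe set choice, centring, eBayes settings, array weights, blocks, groups fitted, name-style shift and each array in turn.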

Additional observations from a re-analysis of the deposited data

Results flagged for a closer look

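Both patterns here are effects that differed between the lines by the test of the difference itself. The oleate effect differed for 1 member, COX6C, by 0.16 on the log2 scale, fat minus lean. That call was lost with the culture series as a random block, with plain eBayes and with the median of the probe sets. The step from uncultured cells to 0 h differed for 3 members, NDUFV3 by 0.58, NDUFB9 by 0.59 and COX6C by 0.29, each larger in the fat line, and none of these was called when the compared groups were fitted alone. Poly-A spike-in controls were lower in 33 of 36 probe sets in the first contrast and in 32 of 36 in the second, and their part was not tested. The uncultured and 0 h arrays lie within one style of array name, while the oleate comparison crosses styles in both lines alike. No outlier test was run, as each group has 3 arrays.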

How the results depend on the processing

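The culture effect kept 59 to 61 called members when 1 array was left out, and the oleate effect 20 to 25. The ranges were 19 to 26 for oleate in the lean line, 13 to 15 in the fat line, 1 to 2 for the difference between them, 2 to 5 at 12 h, 1 to 4 at 24 h, 2 to 5 at 72 h, 3 to 9 at 120 h, 0 for the change of the oleate effect with time and 0 for oleate at 12 h against 0 h. They were 11 to 15 for the line difference in controls, 10 to 14 with oleate, 0 to 3 in uncultured cells and 2 to 4 at 0 h. They were 1 to 5 for the line difference of the culture effect, 1 to 6 and 9 to 19 for confluence in the lean and the fat line, 2 to 8 for time in controls and 3 to 14 with oleate. Without the filter the count was 3 for oleate at 12 h, 1 for uncultured lines, 3 for lines at 0 h and 3 for time in controls. With the median of probe sets it was 3 for oleate at 12 h, 0 for its line difference and 3 for lines at 0 h. Arrays centred on their mean gave 8 for oleate at 12 h. Plain eBayes gave 3 for oleate at 12 h, 0 for the line difference of oleate, 1 for that of the culture effect and 3 for time in controls. Array weights gave 9, 7, 8 and 14 for oleate by hour, 17 for its line difference, 1 for its change with time, 2 for oleate at 12 h against 0 h, 23 for lines with oleate, 0 for uncultured lines, 9 for lines at 0 h, 6 for lean confluence, 11 for time in controls and 24 with oleate. The labels do not say that replicate numbers mark a shared origin. Deviations of arrays with the same line and number had a mean r of 0.083, with 131 of 330 pairs over 0.1, against a mean of -0.041 and 31 of 660 for other numbers. Arrays of the same number were thus more alike on average, which the main p-values do not take into account. As not every pair passed 0.1, the block was kept as an alternative. The replicate block gave 3 for the line difference of oleate and 10 for time in controls. It left 360 of 368 called or named gene results on their side of the threshold. The culture series as a random block (correlation 0.188) gave 11 and 9 for oleate in the lean and the fat line, 0 for their difference, 6 and 8 for lines in controls and with oleate, 8 for lean confluence, 14 for time in controls and 15 with oleate. Fitting the compared groups alone, with fewer arrays to estimate the spread, gave 1 for oleate at 120 h, 0 for uncultured lines, 1 for lines at 0 h, 0 for the line difference of the culture effect, 0 and 9 for confluence in the lean and the fat line, 2 for time in controls and 1 with oleate. With the name-style shift subtracted the counts were 1 for oleate over both lines, 1 and 0 by line, and 0, 1, 0 and 0 by hour. Of 10117 named genes, 60 remained called over both lines and 166 and 6 in the lean and the fat line. By hour 9, 41, 38 and 51 did so.

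Signs turned for some called genes. With the median of probe sets SDHD went to -0.75, NDUFA11 to -0.57 and ATP5C1 to -0.0576 in the culture effect, and NDUFB2 to -0.0788 between lines with oleate. With the name-style shift subtracted, SDHA went to 0.0547 over both lines, 0.0690 in lean and 0.0404 in fat cells and 0.0054 at 12 h. NDUFA4 went to 0.12, 0.19 and 0.0507, and to 0.15, 0.12 and 0.0274 at 24, 72 and 120 h. NDUFB1 went to 0.13 over both lines and 0.0785 in fat cells, where NDUFB3 went to -0.0826 and ATP5G1 to -0.0266. Of 6594 repeats with 1 array left out, 6142 kept the side of the threshold, 419 lost the call and 33 gained it, with no change of sign. The cause of these shifts was not tested, and the name-style estimate cannot be told apart from a response to confluence that differs between the lines. Signals near the floor, as for ATP5G2, limit the size that can be read.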
